A study of Mus musculus with 3072 samples.

Results

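Sorl1, Sort1, Vps35, Vps26a, Vps26b and Vps29 encode 2 sorting receptors and 4 genes of the retromer core, and were read as rows of a deposited table of counts in single microglia of the mouse brain. They are 6 of the 29474 genes of that table, and all 6 had reads in every group. The set was selected on measured values of these data: Sorl1 was chosen by its level, higher in each group of cells from Apoe knockout mice than in its counterpart with Apoe, and the others were added because they belong to the same sorting route. The knockout values of Sorl1 are therefore a description of why it was chosen.

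Sorl1 encodes SORLA and Sort1 encodes sortilin, membrane receptors with a VPS10 domain that carry cargo between the Golgi, the cell surface and endosomes. Retromer, a trimer of VPS35, VPS29 and either VPS26A or VPS26B on the endosome membrane, retrieves such receptors before they reach the lysosome. SORLA binds the amyloid precursor protein and, in cell studies, lowers its cleavage to amyloid peptide, and SORL1 is a risk gene for Alzheimer's disease in people.

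Microglia, which are the macrophages that live in brain tissue, were sorted 1 per well from male mice as CD11b+ and DAPI- cells, and polyadenylated RNA was read with a modified SmartSeq2 protocol without molecular identifiers. Apoe, the gene removed in the knockout, encodes the lipid carrier apolipoprotein E. The question of the study was how Apoe loss bears on the response of microglia to amyloid plaques. APP/PS1 mice carry the APPswe and PS1dE9 transgenes, which a mouse prion protein promoter drives in the brain, and gave, at 17 months, 18.2% (cortex) and 15.9% (hippocampus) of the 1713 cells used. APP/PS1-ApoeKO mice, homozygous for the null allele after a cross with a C57BL/6 Apoe-null breeder, gave 9.87% (cortex) and 18.7% (hippocampus) at 18 months. C57BL/6 mice, without transgenes, gave 19.03% from cortex at 18 months, and C57BL/6-ApoeKO mice gave 18.3% from cortex at the same age. The null allele removes Apoe from every cell of the animal, not from microglia alone. The labels name no treatment. Mice are not named in the labels either: a group counts here as 1 sample and no p-value was computed. Intervals are exact 95% intervals for counting error only, which hold neither the spread between cells nor that between mice. Knockout and Apoe-bearing cells were set side by side in APP/PS1 cortex (the cortex pair), in APP/PS1 hippocampus (the hippocampus pair) and in mice without transgenes (the C57BL/6 pair). Values for several pairs are given in that order.

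The 6 groups held 74767907 to 241536311 reads each, and the median cell held 442917 to 765703 reads. Apoe itself had 13406, 11919 and 485 RPM (reads of the gene per 1000000 reads) in the groups of the 3 pairs that carry it, and 0.0669, 0.745 and 2.96 RPM in the groups labelled knockout. The 5 microglia markers summed to 37114 to 44602 RPM and were read in 100% of the cells of each group. Markers of other cells of the blood were low, with the 4 monocyte markers at 3.16 to 28.3, the 4 neutrophil markers at 0 to 0.547 and the 4 T cell markers at 0.0134 to 3.63 RPM. The 4 astrocyte markers were higher, at 292.2 to 376.7 RPM in all groups, and Gfap was at 0 in both cortex groups without Apoe. C57BL/6 and its knockout shared both their sequencing lanes. The cortex and hippocampus pairs were read in different lanes and at ages 1 month apart, and in them the effects of genotype, of lane and of age cannot be told apart. APP/PS1-ApoeKO cortex also comes from a single lane.

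The promoters of 3 of the genes are shown because Sorl1 and Vps26b are the 2 members with a 2-fold difference in a comparison, and Vps26a is the paralog of Vps26b. Each runs from 250 bases before to 50 after the RefSeq start site on GRCm38.p6, read 5′ to 3′ on the minus strand, and the RefSeq table held promoters for 4 of the 6 genes (Sort1 and Vps35 were not matched). Capitals mark 2 motifs searched on both strands, which do not overlap each other: CACGTG, an E-box that many basic helix-loop-helix factors bind, and GGGCGG or its complement CCGCCC, a GC box. The windows are chr9:42124248-42124547 for Sorl1, chr9:27030045-27030344 for Vps26b and chr10:62486756-62487055 for Vps26a.
Sorl1: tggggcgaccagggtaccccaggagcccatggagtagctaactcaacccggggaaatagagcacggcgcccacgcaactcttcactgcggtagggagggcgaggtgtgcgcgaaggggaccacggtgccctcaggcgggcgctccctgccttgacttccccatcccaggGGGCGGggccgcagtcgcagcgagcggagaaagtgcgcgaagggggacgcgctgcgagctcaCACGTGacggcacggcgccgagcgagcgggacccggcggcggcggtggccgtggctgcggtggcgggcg
Vps26b: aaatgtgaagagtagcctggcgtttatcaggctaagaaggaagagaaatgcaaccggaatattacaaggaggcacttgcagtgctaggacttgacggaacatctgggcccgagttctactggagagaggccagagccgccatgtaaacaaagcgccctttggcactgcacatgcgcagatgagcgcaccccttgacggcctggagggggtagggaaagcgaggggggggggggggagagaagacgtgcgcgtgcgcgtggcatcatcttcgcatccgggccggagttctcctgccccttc
Vps26a: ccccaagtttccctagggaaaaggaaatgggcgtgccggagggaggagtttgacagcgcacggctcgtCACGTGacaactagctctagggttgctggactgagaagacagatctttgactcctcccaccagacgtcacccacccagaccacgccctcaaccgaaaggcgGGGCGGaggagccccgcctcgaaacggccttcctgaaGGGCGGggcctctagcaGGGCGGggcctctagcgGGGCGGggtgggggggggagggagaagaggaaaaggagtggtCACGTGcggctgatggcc
Counting the start site as 1 and the base before it as -1, the Sorl1 window held 1 CACGTG, whose first base lies at -19, and 1 GC box at -81. The Vps26a window held 2 CACGTG, at -182 and 33, and 4 GC boxes, while the Vps26b window held neither motif. Of all 32851 promoters in the table, 7.15% held CACGTG and 35.7% a GC box. The matches describe the letters of these windows alone.

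Sorl1 was read at a low level in cells with Apoe and at a several-fold higher level in cells without it. With Apoe, the level was 6.79 RPM (6.43 to 7.18) in the cortex pair, 1.73 RPM (1.53 to 1.95) in the hippocampus pair and 7.70 RPM (7.35 to 8.06) in the C57BL/6 pair. Without Apoe, it was 55.6 RPM (53.9 to 57.3), 61.5 RPM (60.3 to 62.8) and 43.7 RPM (42.8 to 44.6). All 3 knockout groups lay above all 3 groups with Apoe. The ratio of knockout to Apoe-bearing cells was 8.19 (7.69 to 8.72), 35.5 (31.5 to 40.3) and 5.67 (5.40 to 5.97). As background, genes were counted that had a read in 10% of cells or more, and a level of 20 RPM or more, in either group of a pair; 9.15%, 4.43% and 2.60% of them were higher by 2-fold or more without Apoe in the 3 pairs. Across all 3 at once it was 0.751% of 6660 genes, a set that holds Sorl1 by choice. All 6 members passed that minimum level in the cortex and hippocampus pairs and 5 did in the C57BL/6 pair, where Vps26b was read in under 10% of cells; Sorl1 passed through the knockout groups, in which it is high. Per kilobase of exon, Sorl1 ranged from 0.153 to 5.43 RPM.

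Reads of markers of 3 other brain cell types were found in more cells without Apoe in each pair, as Sorl1 was. The remaining non-microglial types counted did not share this direction in every pair. Astrocyte and border-associated macrophage markers were read in more cells without Apoe in the cortex and C57BL/6 pairs. In the hippocampus pair both were read in fewer cells without Apoe. Monocyte, neutrophil and T cell markers also differed in direction between pairs. At least 1 of 4 neuron markers was read in 1.61%, 1.10% and 5.83% of cells with Apoe and in 4.73%, 1.56% and 10.2% of those without. At least 1 of 4 endothelial markers was read in 5.47%, 3.30% and 9.20% with Apoe and in 9.47%, 7.79% and 13.1% without. At least 1 of 4 oligodendrocyte markers was read in 20.6%, 19.05% and 22.4% with Apoe and in 21.3%, 22.7% and 29.7% without. Their summed levels were low beside the microglia markers. The neuron markers had 3.91, 2.3 and 7.52 RPM with Apoe and 16.2, 2.43 and 13.5 RPM without, and Syt1 and Rbfox3 were at 0 in both APP/PS1 groups with Apoe. The endothelial markers had 12.6, 5.02 and 6.11 RPM against 10.8, 28.6 and 16.9 RPM, with Ly6c1 at 0 in all 6 groups. The oligodendrocyte markers had 68.3, 57.97 and 71.2 RPM against 77.4, 76.4 and 95.3 RPM, with Mog at 0 in all 6. Without every cell that held a read of these 12 genes, an alternative chosen after seeing the data, the Sorl1 knockout ratio was 5.82, 35.5 and 2.96 in the 3 pairs.

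The spread within a group was read from parts of its wells, which are technical and not separate mice. How many of all genes have parts that do not overlap was not computed, so overlap is given as a description only. In C57BL/6 cortex the 4 parts gave 0.405, 9.07, 12.3 and 15.9 RPM of Sorl1, and in C57BL/6-ApoeKO cortex they gave 23.1, 25.03, 26.7 and 82.5 RPM. Those ranges do not overlap, but 1 part of each stands apart, and without plate part 4 of both groups the ratio was 2.10. Within the lanes that both groups shared, the ratio was 2.19 in lane 37 and 13.7 in lane 38. The parts of APP/PS1 cortex ran from 5.41 to 9.46 RPM and those of its knockout from 37.8 to 78.4 RPM. In hippocampus they ran from 0.113 to 3.76 RPM with Apoe and from 45.3 to 73.3 RPM without it.

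**Figure D1:**
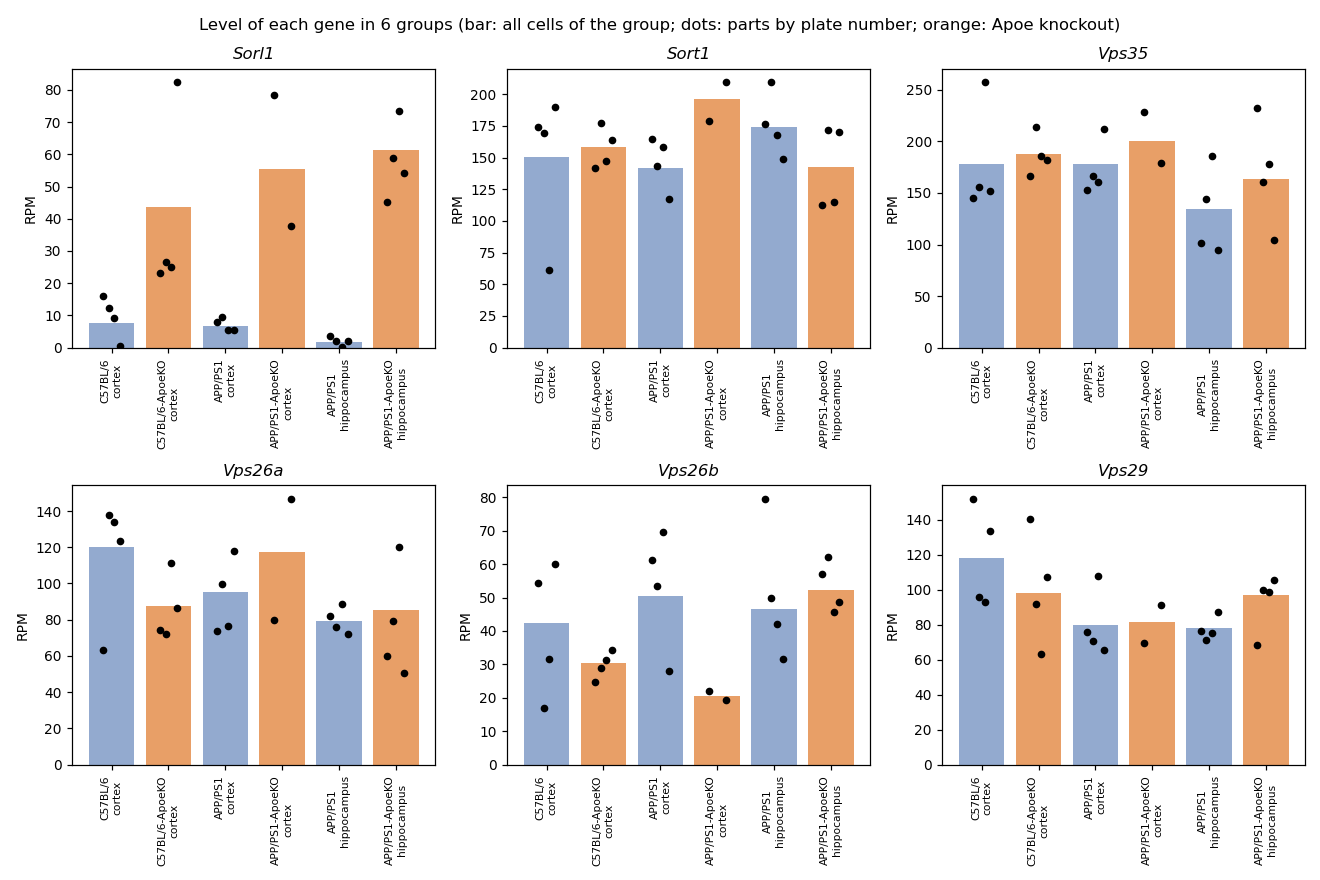
Level of each of the 6 genes in RPM (vertical axes from 0) in the 6 groups: bars give all cells of a group, dots its parts by plate number, orange the Apoe knockout groups and blue the groups with Apoe. The Sorl1 parts of the knockout groups lie between 23.1 and 82.5 RPM and those of the groups with Apoe between 0.113 and 15.9 RPM, while the dots of the other genes mostly overlap.

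Sorl1 reads came from a minority of cells in every group. At least 1 read was found in 25 cells of APP/PS1 cortex (8.04% of the group, 5.27 to 11.6), 11 of APP/PS1 hippocampus (4.03%, 2.03 to 7.10) and 12 of C57BL/6 cortex (3.68%, 1.92 to 6.34). Without Apoe it was found in 29 cells of APP/PS1 cortex (17.2%, 11.8 to 23.7), 58 of APP/PS1 hippocampus (18.1%, 14.02 to 22.7) and 51 of C57BL/6 cortex (16.3%, 12.4 to 20.9). The share was higher without Apoe in each pair, the direction for which Sorl1 was chosen. The intervals of a pair do not overlap, but they count cells of 1 sample per group and do not cover the spread between mice. With every cell thinned to 100000 reads, which left out 8 shallower cells in all, the shares with Apoe were 7.07%, 2.57% and 3.68%, and those without it 15.4%, 15.99% and 14.9%; in APP/PS1 cortex the 2 intervals then overlap slightly (4.49 to 10.5 and 10.3 to 21.7). Within the shared lanes of the C57BL/6 pair the share was 4.32% against 14.6% in lane 37 and 3.05% against 17.9% in lane 38. The lanes are parts of the same 2 groups and not separate mice. A cell without a Sorl1 read is not shown to lack the transcript.

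Among the cells that held a read, the level differed less between the C57BL/6 groups than between the APP/PS1 groups. Their median was 120.6 RPM in C57BL/6 cortex and 114.2 RPM in its knockout. It was 55.02 against 177.7 RPM in the cortex pair and 17.9 against 137.7 RPM in the hippocampus pair. A few cells carried much of the total: the 5 cells with most Sorl1 reads gave 92.96% of the reads in APP/PS1 hippocampus, 82.9% in C57BL/6 cortex and 49.3% in APP/PS1 cortex, and 34.3% to 45.5% in the knockout groups. Without the top 5 cells of every group the knockout ratio was 9.19, 333.6 and 18.2 in the 3 pairs, so its size turns on few cells. Leaving out these cells takes a larger part of the reads from the groups with Apoe, which raises the ratio. Its direction was the ground for choosing Sorl1 and gains no support here.

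**Figure D2:**
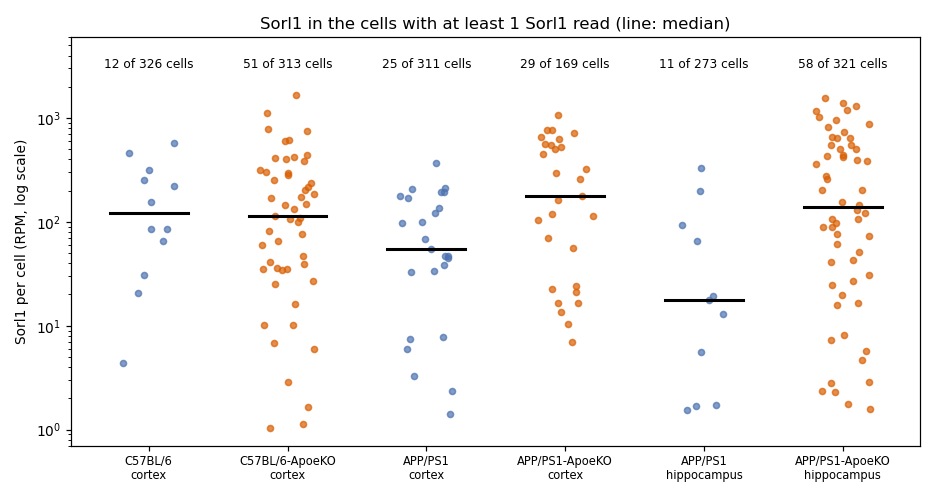
Sorl1 in each cell with at least 1 Sorl1 read, in RPM of that cell on a log axis, by group; the line is the median over those cells, and the number above each group gives cells with a read of all cells. The knockout groups (orange) hold 51, 29 and 58 such cells against 12, 25 and 11 with Apoe, and the medians of the C57BL/6 pair, 120.6 and 114.2 RPM, are close.

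The cells with Sorl1 reads held the same microglia markers as the other cells. Over the 3 knockout groups, the cells with a Sorl1 read and the 665 cells with none had a median of 510013 and 492757 reads. A microglia marker was read in 100% of both. Sortilin was read in 54.3% of the cells with a Sorl1 read and 45.7% of the others. For the core subunits the pooled shares were 32.6% and 34.1% (Vps35), 24.6% and 24.5% (Vps26a), 13.04% and 10.2% (Vps26b), and 23.2% and 27.5% (Vps29). Their pooled levels were 145.7 and 189.2, 70.1 and 96.7, 46.7 and 34.2, and 78.5 and 98.1 RPM. Single groups went both ways. Vps29 was read in 34.5% and 21.4% in APP/PS1-ApoeKO cortex, 17.2% and 28.9% in APP/PS1-ApoeKO hippocampus, and 23.5% and 29.4% in C57BL/6-ApoeKO cortex. Vps26a was read in 20.7% and 28.6%, 18.97% and 24.7%, and 33.3% and 22.1% in the same groups. A marker of monocytes, neutrophils or T cells was read in 6.52% of the cells with Sorl1 and 5.41% of the others. In the 3 groups with Apoe, Vps26b was read in 0 of the 48 cells with Sorl1 and in 13.2% of the 862 without, a contrast chosen after its values were seen; 0 of 48 allows a share of up to 6.25%. Over the pooled knockout groups the order was the opposite, as given above, though not in APP/PS1-ApoeKO cortex (6.9% and 7.86%).

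Activated microglia, marked by at least 1 read of Cst7, Clec7a, Itgax, Axl or Lpl, made up 12.3% to 47.9% of a group. Sorl1 was read in 28.4% of such cells of APP/PS1-ApoeKO hippocampus (23 of 81, 18.9 to 39.5) and in 14.6% of the other cells of that group (35 of 240, 10.4 to 19.7). The same split gave 17.02% and 17.2% in APP/PS1-ApoeKO cortex and 18.3% and 15.7% in C57BL/6-ApoeKO cortex. It gave 6.58% and 3.05% in APP/PS1 hippocampus, 7.5% and 3.15% in C57BL/6 cortex, and 6.71% and 9.26% in APP/PS1 cortex, where activation genes were read most often. The share was higher in activated cells of 4 groups and lower in both cortex groups of APP/PS1 and APP/PS1-ApoeKO mice. In activated cells the Sorl1 level was 4.64, 1.66 and 2.96 RPM with Apoe in the 3 pairs, and 52.3, 86.4 and 35.2 RPM without. That was below the level of the other cells, given next, in every group except APP/PS1-ApoeKO hippocampus. Among cells without an activation gene, the Sorl1 level in the 3 pairs was 8.84, 1.76 and 8.33 RPM with Apoe, against 56.9, 52.9 and 46.3 RPM in the knockouts. The ratio within these cells was 6.44, 30.1 and 5.55.

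Sort1, the other VPS10 receptor read in these cells, was present at a steadier level. It had 142.1 RPM in APP/PS1 cortex and 196.02 in its knockout, 174.1 and 142.5 in the hippocampus pair, and 150.6 and 158.6 in the C57BL/6 pair. The knockout ratio was 1.38 (1.35 to 1.41), 0.819 (0.804 to 0.833) and 1.05 (1.04 to 1.07) in the 3 pairs, so the direction was not shared. In the cortex pair the well parts do not overlap, at 117.6 to 164.5 RPM with Apoe and 178.5 to 209.7 without, where there are only 2 parts. In the other pairs they overlap. Sort1 was read in 44.7% to 51.3% of cells, and per kilobase of exon its level was 18.8 to 25.9 RPM, above that of Sorl1 in every group. The 3 remaining receptors of the family, Sorcs1, Sorcs2 and Sorcs3, had at most 1.72 RPM.

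Vps35, the scaffold on which the trimer is built, had 177.8 RPM in APP/PS1 cortex and 200.8 in its knockout, 134.6 and 163.3 in the hippocampus pair, and 178.2 and 188.1 in the C57BL/6 pair. The knockout ratios were 1.13, 1.21 and 1.06, and the well parts overlap in all 3. Vps29, the subunit that binds regulators of the GTPase Rab7, had 80.02, 78.1 and 117.97 RPM with Apoe in the 3 pairs, and 81.6, 96.7 and 97.97 RPM without. Its knockout ratios were 1.02, 1.24 and 0.830, with overlapping parts. Neither gene had a 2-fold difference. Vps35 was read in 31.5% to 36.4% of cells and Vps29 in 23.7% to 34.4%.

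VPS26A and VPS26B are alternative arms of the trimer that join it to sorting nexins and cargo. Vps26a had 95.4 RPM in APP/PS1 cortex, 79.4 in APP/PS1 hippocampus and 119.9 in C57BL/6 cortex, and 117.3, 85.5 and 87.4 RPM in their knockouts. Its knockout ratios were 1.23, 1.08 and 0.729, and the parts overlap in each. Vps26b had 50.6, 46.5 and 42.4 RPM with Apoe and 20.5, 52.2 and 30.5 RPM without. The level of APP/PS1-ApoeKO cortex is the lowest of the 6, below that of APP/PS1 cortex by 2.47-fold (2.34 to 2.61), where 3.17% of genes were at least 2-fold lower. In that pair Vps26b reached the minimum level only in APP/PS1 cortex, the group in which it is higher. The 2 well parts of APP/PS1-ApoeKO cortex, at 19.4 and 21.9 RPM, lie below the 4 parts of APP/PS1 cortex, at 27.9 to 69.7 RPM. The ratio rests on few cells, 13 (7.69% of the group, 4.16 to 12.8) against 45 (14.5%, 10.8 to 18.9), and the intervals of these shares overlap. The log2 ratio of -1.31 was -0.99 when the cells of APP/PS1-ApoeKO cortex whose labels give no depth were added and -0.59 in cells without an activation gene, both within 2-fold, and without the top 5 cells of each group it was -2.37. In hippocampus the knockout ratio was 1.12 and in C57BL/6 cortex 0.719, with overlapping parts in both. In cells without an activation gene the ratio of the C57BL/6 pair was 0.467, past 2-fold.

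Of the 15 knockout ratios of the 5 genes other than Sorl1, 1 was past 2-fold, that of Vps26b in APP/PS1 cortex. Over all genes at the minimum level, 12.3%, 7.24% and 4.72% were past 2-fold in either direction in the 3 pairs. Per kilobase of exon, Vps26a had 27.7 to 41.9 RPM, Vps35 15.1 to 22.6, Vps29 12.7 to 19.2 and Vps26b 4.02 to 10.2, so Vps26a was above Vps26b in each group. The share of cells with a read of any of the 4 core genes was 66.5% to 73.3%. Reads of VPS35, VPS29 and a VPS26 transcript together were found in 2.37% to 5.47% of cells, and reads of both Vps26 paralogs in 1.18% to 5.79%. At this depth most cells showed only some of the subunits, which does not show that the others were absent. Across the 6 groups, Vps35 and Vps26a had a Pearson correlation of log2 levels of 0.69, Vps26a and Vps26b one of -0.50 and Sorl1 and Sort1 one of 0.07. These describe 6 points that share lanes and tissues.

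**Figure D3:**
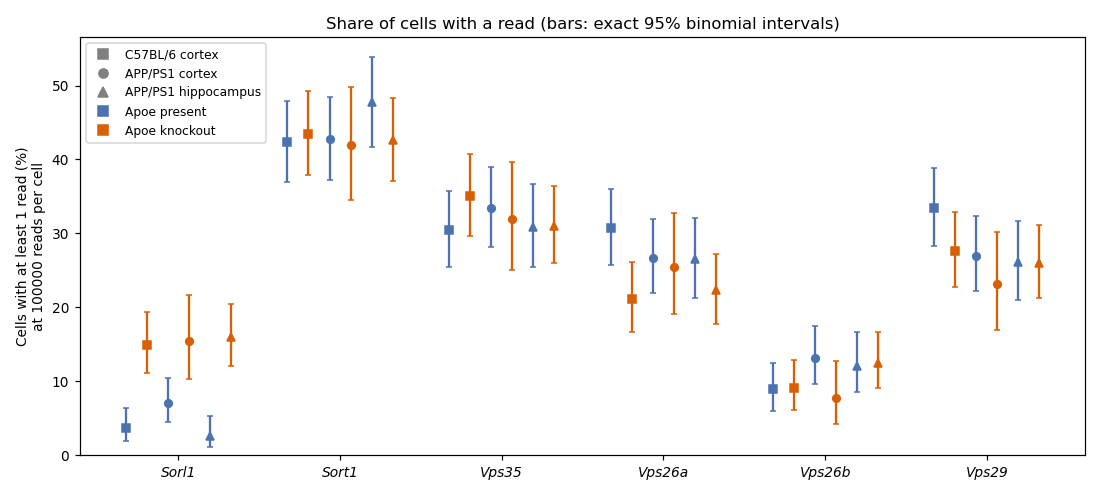
Share of cells with at least 1 read of each gene (percent) when each cell is thinned to 100000 reads, with exact 95% binomial intervals; squares are C57BL/6 cortex, circles APP/PS1 cortex, triangles APP/PS1 hippocampus, blue with Apoe and orange without. The Sorl1 shares lie at 2.57% to 7.07% with Apoe and 14.9% to 15.99% without. The Sorl1 intervals overlap slightly in APP/PS1 cortex, and the intervals of a pair overlap for each of the other 5 genes.

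The amyloid and tissue comparisons use the same groups again, so they are not independent of the knockout ones. The amyloid comparisons set side by side groups that shared no lane, and those with Apoe were at 17 and 18 months. Effects of amyloid and of lane, and with Apoe also of age, cannot be told apart in them. For amyloid in cortex, Sorl1 had a ratio of APP/PS1 to C57BL/6 of 0.882 with Apoe and 1.27 without it, and the well parts overlap in both. Its direction turned with the cells used: without the top 5 Sorl1 cells of each group the ratio with Apoe was 2.61, and without Apoe it was 0.752 when plate part 3 was left out and 3.12 when part 4 was. The other 5 genes had ratios of 0.678 (Vps29) to 1.20 (Vps26b) with Apoe, and of 0.672 (Vps26b) to 1.34 (Vps26a) without it. None of the 12 ratios was past 2-fold over all cells, where 6.54% and 6.25% of genes at the minimum level were, in either direction. Sorl1 with Apoe and Vps26b without it did not reach that level. Vps26b also varied with the cells used: without Apoe its ratio was 0.420 without the top 5 cells and 1.26 in cells without an activation gene, and with Apoe it was 2.32 without cells holding a neuron, endothelial or oligodendrocyte marker. Over all cells, the parts of Sort1 and Vps26b do not overlap without Apoe, but APP/PS1-ApoeKO cortex has only 2 parts. Sort1 had 178.5 to 209.7 against 141.5 to 177.6 RPM, a narrow gap, and Vps26b 19.4 to 21.9 against 24.8 to 34.2 RPM. The share of all genes with such parts was not computed.

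Between tissues of APP/PS1 mice, which shared both lanes, Sorl1 was 3.93-fold lower (3.44 to 4.49) in hippocampus than in cortex. Of genes at the minimum level, 1.35% were at least 2-fold lower, but Sorl1 was below that level in both tissues. With no minimum level the share was 17.99%. The well parts, at 0.113 to 3.76 and 5.41 to 9.46 RPM, do not overlap, and the fold was 3.55 in lane 41 and 4.60 in lane 42. The hippocampus value stands on 270 reads in 11 cells, and without the top 5 cells of each tissue the log2 ratio was -4.82 in place of -1.97. Without Apoe the ratio was 1.11, with parts that overlap, and it was 2.22 without cells holding a neuron, endothelial or oligodendrocyte marker. Vps26b was 2.55-fold higher (2.41 to 2.69) in APP/PS1-ApoeKO hippocampus than in cortex. In that comparison 1.97% of genes were higher by 2-fold or more. Vps26b reached the minimum level there only in hippocampus, the tissue in which it is higher. Its ratio with Apoe was 0.919. The tissues of APP/PS1-ApoeKO mice were read in different lanes, so effects of tissue and of lane cannot be told apart in them. The other 4 genes lay within 2-fold in both genotypes, except that Vps26a had a log2 ratio of -1.19 without Apoe when plate part 3 was left out.

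The wider machinery of the same route lay mostly within 2-fold in the knockout comparisons, as most genes did. The 50 further genes counted had a mean of at least 1 RPM over the 6 groups. Of these, 3 were higher by 2-fold or more without Apoe and 0 lower in the cortex pair. In the hippocampus pair 1 was higher and 1 lower, and in the C57BL/6 pair 1 was higher and 0 lower. Over all genes at the minimum level, 9.15%, 4.43% and 2.60% were higher by 2-fold or more, and 3.17%, 2.81% and 2.12% lower. That level is a stricter cut than the 1 RPM taken for the 50 genes. The median log2 ratios of the 50 were 0.08, 0.08 and 0.05, beside 0.18, 0.05 and 0.02 over all genes at the minimum level. Snx6, a sorting nexin that bends the tubules on which retromer cargo leaves, had 69.2 RPM with Apoe and 150.9 without in the cortex pair, and 69.7 and 151.9 RPM in the hippocampus pair. In C57BL/6 cortex it had 170.1 RPM and in the knockout 132.3, so the APP/PS1 groups with Apoe were the low ones. Those groups shared 2 lanes that no other group analysed here used, and the part of the lane was not tested.

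Ankrd27, which encodes the Rab-binding protein VARP that VPS29 holds, was 2.41-fold higher in APP/PS1-ApoeKO cortex, at 50.4 against 20.9 RPM. Commd7, of the COMMD proteins that work with the retriever complex, was 2.42-fold higher there, at 149.7 against 61.9 RPM. Commd2 had 22.1 RPM in APP/PS1-ApoeKO hippocampus and 44.3 in APP/PS1 hippocampus. Vps18, a subunit of the HOPS and CORVET tethers, was 2.02-fold higher in C57BL/6-ApoeKO cortex, at 114.97 against 56.9 RPM. None of the 5 WASH complex genes, the 8 GGA and AP-1 adaptor genes or the 4 GARP genes was past 2-fold in a knockout comparison. Of all genes at the minimum level, 12.3%, 7.24% and 4.72% were, in either direction. Ehd1 was not analysed here.

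**Figure D4:**
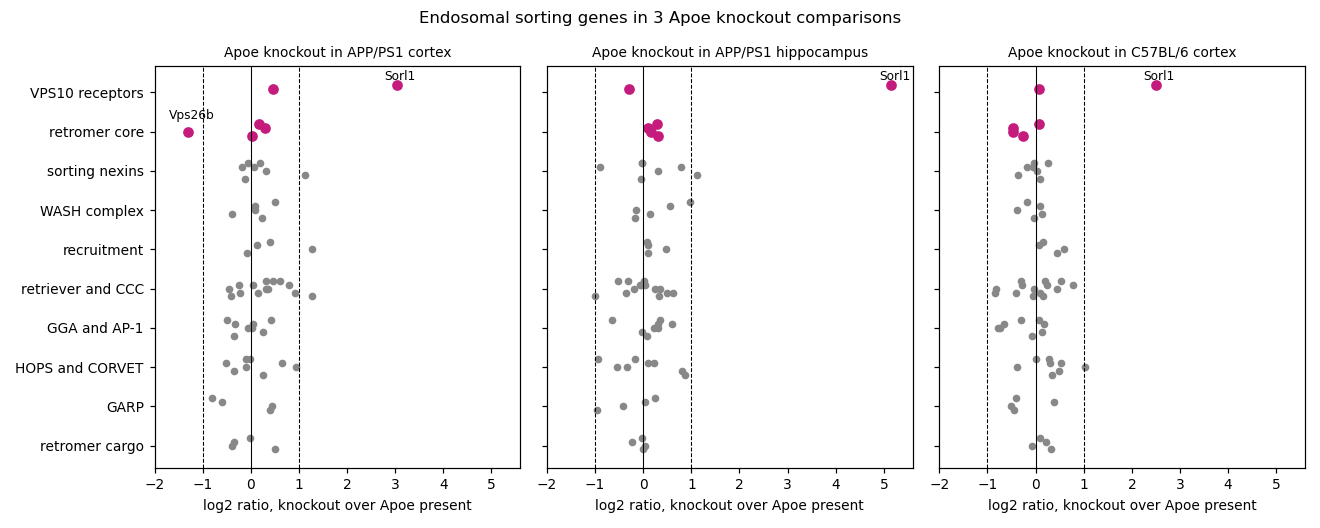
Log2 ratio of RPM, knockout over Apoe present, by role, in the 3 knockout comparisons. The 6 genes are magenta, and the other genes of the sorting route with a mean of at least 1 RPM over the 6 groups are grey. Dashed lines mark 2-fold. Sorl1 lies above the upper dashed line in all 3, at ratios of 8.19, 35.5 and 5.67, and Vps26b is the only other member outside the dashed lines, at a log2 ratio of -1.31 in APP/PS1 cortex.

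Cargo of the route was read at very different levels. Trem2, the lipid-sensing receptor of microglia that retromer recycles, had 2133 to 3442 RPM, M6pr, a mannose 6-phosphate receptor, 286.2 to 332.5 RPM, and Igf2r at most 0.462 RPM. App, the precursor that SORLA binds, had 80.5, 110.5 and 68.9 RPM with Apoe in the 3 pairs, and 113.9, 109.5 and 86.8 RPM without. The APP transgene is part mouse in sequence and can add reads to that row. None of the 4 cargo genes with a mean of at least 1 RPM over the 6 groups was past 2-fold in a knockout comparison. Most genes at the minimum level were not either. Cd36 was below that mean, at 2.25, 1.06 and 0.00414 RPM with Apoe in the 3 pairs and 0, 2.28 and 0 RPM without. It was lower without Apoe in the cortex pair and higher in the hippocampus pair.

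Ligands of the receptors were among the most abundant genes named here. Grn, whose product progranulin is taken up by sortilin, had 2250 to 3698 RPM, and Psap, the prosaposin gene, 2580 to 3622 RPM. Lpl, the lipoprotein lipase gene whose product SORLA binds, had 61.9 RPM in APP/PS1 cortex and 16.3 in its knockout, but 22.8 and 146.8 RPM in the hippocampus pair and 3.27 and 9.75 RPM in the C57BL/6 pair. It is also 1 of the 5 activation genes, and its direction was not that of Sorl1 in APP/PS1 cortex. Apoe, a ligand of both receptor types in other systems, is the gene removed.

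Sorl1 lies on chromosome 9 at 41964720 to 42124297 on the minus strand (GRCm38, GENCODE M21). Of 30 genes annotated within 500 kb, 6 had a row and 3 reached 1 RPM in a group. Sc5d, an enzyme of cholesterol synthesis, had 15.2, 11.7 and 25.3 RPM with Apoe in the 3 pairs, and 18.95, 31.6 and 30.4 RPM without, a ratio of 1.25, 2.69 and 1.20. Tbcel, a tubulin cofactor gene, was lower in each knockout group, with ratios of 0.743, 0.401 and 0.641. Grik4, a kainate receptor subunit gene, was read at 1.63, 1.96 and 0.0869 RPM with Apoe and at 0.134, 1.17 and 0.146 RPM without, with ratios of 0.0820 (0.0389 to 0.153), 0.599 and 1.68. The antisense gene Gm16214 overlaps an exon of Sorl1 but held 64 reads over all groups, against 1279 Sorl1 reads in APP/PS1 cortex alone. The strand setting of the counting was not given in the sources used, and Vps35 and Orc6, and Vps29 and Fam216a, also overlap on opposite strands.

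Over the 6 groups and 6379 genes, the 5 genes most like Sorl1 by Pearson correlation of log2 levels were Man2a2 (0.994), Prune2 (0.992), Tnfrsf1b (0.989), Slc12a7 (0.986) and Fcrl1 (0.985). Man2a2, a Golgi mannosidase gene, had 20.3 to 30.6 RPM with Apoe and 43.3 to 50.7 without. Tnfrsf1b, a TNF receptor gene, had 176.4 to 205.8 RPM with Apoe and 261.9 to 283.4 without. Fcrl1 had 12.6 to 33.01 RPM with Apoe and 85.6 to 96.9 without. Each of these separates the groups with and without Apoe as Sorl1 does, over a smaller fold range. They were picked for likeness to Sorl1, itself chosen for that separation, so their separation follows from the choice. The genes most like the other members were Pprc1 for Sort1 (0.980), Ptgr2 for Vps35 (0.989), Smc5 for Vps26a (0.984), Lman2l for Vps26b (0.984) and Eif2s1 for Vps29 (0.989), chosen as the highest of 6379 values over 6 points.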

How the data were processed

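The authors deposited whole-number read counts per gene and cell; the submitters' processing notes name the mm10 build, Seurat 2.3.1, featureCounts 1.5.1 and STAR 2.5.2, without saying what each did. Strand and overlap handling was not given in the sources used. Of 1878 cells, 1713 whose read total and gene number equal the labels' were used; the others, without a labelled depth, entered an alternative. Labels list 3072 wells in 8 groups; APP/PS1 at 18 months was not analysed here. Counts were summed per group and divided by the group's total (RPM). A gene without reads was given 3 reads per group, 0.0124 to 0.0401 RPM. Ratios and shares have exact 95% intervals (Poisson, Clopper-Pearson), which cover counting error only; reads are not independent molecules. Log2 ratios were checked on simulated data. No cells were marked as doublets and no doublet caller was run. Exon lengths are from GENCODE M21; likeness added 0.5 RPM. Members and lists were chosen with earlier results of these data known, and no list was tested. The rule for named genes took the 6 members, list genes past 2-fold in all 3 knockout comparisons or defining a list, the genes within 500 kb of Sorl1 and the 5 genes most like it; Snx6, Ankrd27, Commd2, Commd7, Vps18 and the genes most like the other members were named after their values were seen. Alternatives were TMM scaling (edgeR 4.0.16) and others given at the end. Python 3.11.15, pandas 2.3.3, SciPy 1.17.1 and R 4.3.3 were used.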

Additional observations from a re-analysis of the deposited data

Results flagged for a closer look

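Vps26b had opposite signs for the loss of Apoe in the tissues of APP/PS1 mice, with a log2 ratio of -1.31 in cortex and 0.17 in hippocampus. The same 4 groups, compared between tissues, gave Vps26b a log2 ratio of hippocampus to cortex of 1.35 without Apoe and -0.12 with it. Sorl1 had a log2 ratio of hippocampus to cortex of -1.97 with Apoe and 0.15 without it. These differences between groups were not tested, since each group is 1 sample, and the values of a gene share groups. The APP/PS1-ApoeKO cortex cells left out for want of a labelled depth had 77.3 RPM of Sorl1, with a read in 29.1% of cells, and 0.0714 RPM of Apoe; Vps26b had 30.8 RPM in them, against 20.5 RPM in the cells used.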

How the results depend on the processing

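Sorl1 was past 2-fold higher in all 3 knockout comparisons under each alternative run, the direction for which it was chosen. In APP/PS1 cortex its log2 ratio of 3.03 was 3.28 with the cells of unlabelled depth added, 2.80 as a mean of per-cell RPM, 2.78 with TMM and 2.82 with median-of-ratios scaling, 2.61 with cells thinned to 100000 reads, 3.20 without the top 5 cells, and 2.69 in cells without activation genes; leaving out each plate part gave 2.38 to 3.39. In APP/PS1 hippocampus 5.15 was 4.51 as a mean, 4.60 thinned, 8.38 without the top 5 cells and 4.91 without activation genes, and 4.52 to 5.54 without each part. In C57BL/6 cortex it was 2.43 as a mean, 4.18 without the top 5 cells, 1.13 in lane 37, 3.78 in lane 38, 1.07 to 2.97 without each part, and 2.27 without cells holding a blood cell marker. Without cells holding a neuron, endothelial or oligodendrocyte marker it was 2.54 in APP/PS1 cortex and 1.57 in C57BL/6 cortex; both marker alternatives were chosen after seeing the data. The cause of these changes was not tested. Of the 15 knockout ratios of the other members, 1 was past 2-fold, and 0 with the cells of unlabelled depth added; leaving out each part gave 1 throughout. In cells without activation genes the count was 1, but of Vps26b in C57BL/6 cortex (-1.10) and not in APP/PS1 cortex (-0.59). Of 24 amyloid and tissue ratios, 2 were past 2-fold, 4 without the top 5 cells or without the brain cell markers, and 2 to 3 without each part. In APP/PS1 cortex the sign held in 8 of 14 alternatives for Vps35, 12 for Vps26a and 6 for Vps29. With no minimum level, 41.6%, 37.9% and 37.4% of genes were past 2-fold in either direction in the knockout comparisons, against 12.3%, 7.24% and 4.72%. No paired analysis was possible because the labels number wells and not animals. Depth limits Sorl1 most: 270 reads in APP/PS1 hippocampus, and 12 cells with a read in C57BL/6 cortex. Age, lane and genotype cannot be told apart in APP/PS1, and each group is 1 sample.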
